A study of Mus musculus with 8 samples.

Results

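The genes described here are 10 mouse genes of early myeloid differentiation, chosen by name: the granule proteins Mpo, Elane, Ctsg and Prtn3, the transcription factors Cebpa, Cebpb, Spi1, Irf8 and Gfi1, and the receptor Csf3r. Rows for 9 of the 10 were found among the 22065 named genes of the count table. Ctsg was not analysed here. Of the 9, 7 passed the expression filter and were tested with all other genes. Mpo and Elane did not pass it and are given as counts.

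RNA-seq was performed on HSCs sorted from bone marrow of C57BL/6 mice aged 8 to 10 weeks, in 4 libraries from MitolΔ/Δ and 4 from control mice, each made from 100 cells. MitolΔ/Δ mice were Mitol Flox/Flox; MX1-cre +/−, and controls were Mitol Flox/Flox; MX1-cre −/− littermates. Both groups received Poly:IC, which turns on the interferon-responsive MX1 promoter driving cre, and were analyzed 1 week later. MX1-cre acts in blood cells and in other cells that respond to interferon, so the deletion is not restricted to HSCs. The sort kept CD150+ CD48- EPCR+ cells without lineage markers. The paper's gate for long-term HSCs also required c-Kit, the product of Kit. Nothing in the labels ties the libraries to separate animals, so the p-values below measure the spread between these libraries, which may be technical.

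Myeloid priming is the low-level expression of granulocyte and monocyte genes in stem and progenitor cells before they commit to a lineage. PU.1, encoded by Spi1, and C/EBPα open this program, IRF8 favours monocytes and dendritic cells, and GFI1 favours granulocytes. The primary granule proteins are then made in bulk at the promyelocyte stage. In these bulk libraries, a smaller number of expressing cells and less mRNA per cell cannot be told apart.

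Counts on named genes summed to between 7214935 and 12398138 per library. The targeted gene Marchf5, which encodes MITOL, had normalized counts of 276, 232, 308 and 281 in MitolΔ/Δ libraries 1 to 4 and 299, 312, 333 and 262 in control libraries 1 to 4. This difference was a log2 fold change of -0.15 (edgeR, adjusted p = 0.498), so the total count of the gene did not mark the deleted libraries. All 12 HSC markers looked for had rows, and their summed normalized counts ran from 34720 to 38829 in MitolΔ/Δ and from 49230 to 55916 in control libraries. A normalized count is the count on a gene over the library's DESeq2 size factor. By the quasi-likelihood test of edgeR, 770 genes were higher and 616 lower in MitolΔ/Δ HSCs at an adjusted p under 0.05. Scaled by upper quartiles instead of TMM, the same genes gave 594 higher and 845 lower calls.

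The promoters of the granule genes are shown because PU.1 and C/EBP proteins, the products of other genes described here, are the textbook activators of these genes. Each line gives the 250 bases before the start of the canonical GENCODE vM39 transcript on GRCm39, 5′ to 3′ on the plus strand. Capitals mark GAGGAA, a core of the PU.1 motif, and in Mpo also TTNNGNAA, a loose form of the C/EBP motif, both searched on both strands. The positions are chr10:79715198-79715447 for Prtn3, chr10:79721831-79722080 for Elane and chr11:87684157-87684406 for Mpo.
Prtn3: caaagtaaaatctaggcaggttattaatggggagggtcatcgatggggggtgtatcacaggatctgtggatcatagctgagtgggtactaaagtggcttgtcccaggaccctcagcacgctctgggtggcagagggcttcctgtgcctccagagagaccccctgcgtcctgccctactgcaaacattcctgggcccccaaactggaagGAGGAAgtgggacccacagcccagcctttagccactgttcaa
Elane: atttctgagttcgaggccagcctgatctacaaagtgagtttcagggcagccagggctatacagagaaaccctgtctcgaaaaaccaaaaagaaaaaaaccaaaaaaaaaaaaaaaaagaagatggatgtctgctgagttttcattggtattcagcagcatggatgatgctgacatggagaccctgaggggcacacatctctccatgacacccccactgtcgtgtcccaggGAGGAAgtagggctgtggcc
Mpo: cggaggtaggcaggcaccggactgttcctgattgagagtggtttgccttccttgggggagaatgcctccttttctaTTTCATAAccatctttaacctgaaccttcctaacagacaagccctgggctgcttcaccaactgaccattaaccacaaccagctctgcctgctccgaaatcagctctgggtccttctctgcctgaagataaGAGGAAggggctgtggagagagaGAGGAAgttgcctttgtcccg

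GAGGAA stood 42 bases before the start in Prtn3, 20 bases before it in Elane, and 44 and 21 bases before it in Mpo. Spi1 itself had 3 matches within the same distance, at 43, 24 and 7 bases, and Ctsg had 1 match farther out, at 216 bases. So 5 of the 10 promoters held the letters, against 22.9% of 21770 promoters of this length, and in 4 of the 10 they lay within 50 bases of the start, against 4.88% of all promoters. TTNNGNAA was present in Mpo and Csf3r, 2 of the 10, against 36.9% of all promoters. No match of one motif overlapped a match of the other in these genes. Such matches are letters in a window and were not tested for binding.

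None of the 7 tested genes passed the threshold in either direction, against 8.43% of the 16444 genes tested. None of the 9 measured genes had groups without overlap, against 15.4% of the genes tested. At an unadjusted p under 0.05 the test kept 1 gene, Prtn3, against 26.4% of all genes in either direction and 13.6% higher. DESeq2 called the same 1 gene at an adjusted p under 0.05, against 14% of the 16488 genes it tested in either direction and 8.19% higher. The log2 fold change was above 0 for 7 of 7 genes, with a median of 0.33, whereas 47.7% of all genes tested had a value above 0 and their median was -0.02. The 7 genes were measured in the same libraries and are not independent of each other. For Prtn3, Csf3r and Cebpb, MitolΔ/Δ libraries 4 and 3 were the 2 highest of all 8 libraries.

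**Figure D1:**
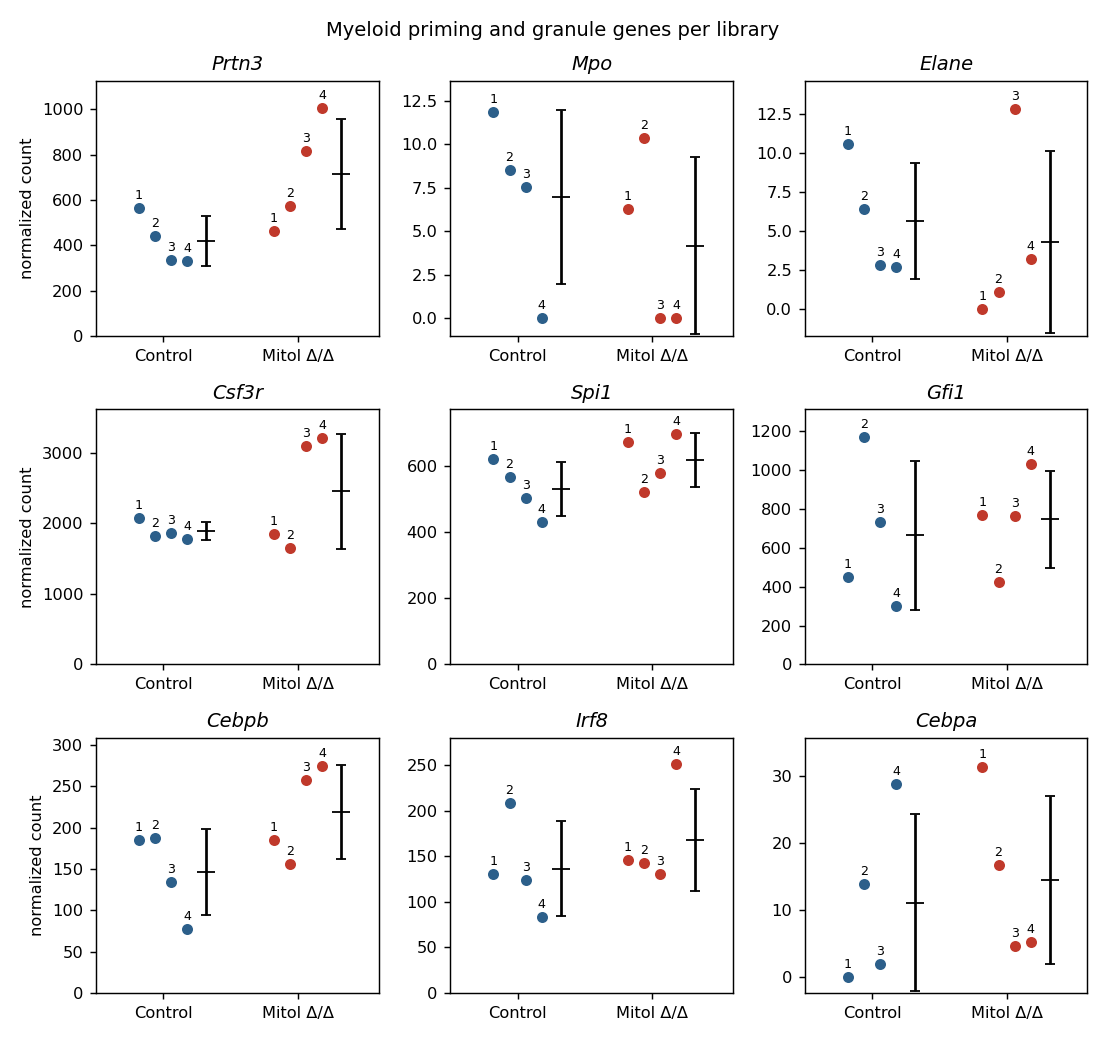
Normalized counts (y axis, each panel on its own scale) of the 9 measured genes in control libraries (blue) and MitolΔ/Δ libraries (red), numbered by replicate, with the mean and SD of 4 libraries in black. The groups overlap in every panel, and the highest Prtn3 and Csf3r values are those of MitolΔ/Δ libraries 4 and 3.

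Among the granule genes, Prtn3, which encodes proteinase 3, a serine protease of primary granules, was the abundant one. Its normalized counts were 462, 573, 817 and 1006 in MitolΔ/Δ libraries 1 to 4 and 566, 443, 333 and 332 in control libraries 1 to 4. Libraries 3 and 4 of MitolΔ/Δ were far above every control, library 2 was just above the highest control, and library 1 lay inside the control range. The means were 714 ± 245 and 419 ± 111 (SD, n = 4 each). The log2 fold change was 0.76 with a standard error of 0.24 (edgeR, adjusted p = 0.0674), with 3 of 4 MitolΔ/Δ libraries above all controls. A 2-sided exact permutation test of the means gave p = 0.0571, where the smallest value 4 against 4 libraries can give is 0.0286.

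The call for Prtn3 depended on the tool and on single libraries. DESeq2 gave an adjusted p of 0.0150, and edgeR gave 0.0403 without control library 1 and 0.0439 without MitolΔ/Δ library 1. In the other 6 fits with 1 library left out the gene did not pass, and the fold change over all 8 such fits ran from 0.57 to 0.94 on the log2 scale. Over the 15 alternatives fixed for this gene, the adjusted p ran from 0.0150 to 0.175. Without MitolΔ/Δ libraries 3 and 4 together, a fit added after the values were seen, the log2 fold change was 0.31 (edgeR, adjusted p = 0.348).

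Mpo, encoding the myeloperoxidase that makes hypochlorous acid, and Elane, encoding neutrophil elastase, were near the limit of detection. Mpo had 8, 10, 0 and 0 counts in MitolΔ/Δ libraries 1 to 4 and 9, 8, 8 and 0 counts in control libraries 1 to 4. The sums were 18 (95% exact Poisson interval 10.7 to 28.4) and 25 (16.2 to 36.9), so no difference was detectable at this depth. Elane had 0, 1, 14 and 3 counts in MitolΔ/Δ and 8, 6, 3 and 3 counts in control libraries. Its sums were 18 (10.7 to 28.4) and 20 (12.2 to 30.9), and 14 of the 18 counts came from MitolΔ/Δ library 3. The exact permutation test gave p = 0.486 for Mpo and 0.686 for Elane. A count of 0 allowed up to 2.75 and 3.17 normalized counts of Mpo in MitolΔ/Δ libraries 3 and 4 and up to 2.69 in control library 4. These intervals and limits cover counting error only, since without molecular identifiers 2 reads can come from 1 molecule.

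Prtn3 and Elane are neighbours on chromosome 10 and point the same way, with 3072 bases between them. Prtn3 spans chr10:79710310-79719008 and Elane chr10:79722081-79724051 on GRCm39. In control libraries Prtn3 had 354 to 429 counts and Elane 3 to 8, so the counts of the pair differed greatly in the same libraries. MitolΔ/Δ library 4, the highest for Prtn3, held 3 Elane counts, and library 3, the second highest, held 14.

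Prtn3 has an annotated antisense overlap. The longest annotated form of Prtn3 shares 197 exonic bases, chr10:79710310-79710506, with Plppr3 on the other strand, which encodes a phospholipid phosphatase-related membrane protein. The shared bases lie upstream of the canonical Prtn3 start, and the strand setting of the counting is not given in the sources used here. Plppr3 had normalized counts of 1918, 2153, 2236 and 2605 in MitolΔ/Δ and 1848, 1622, 1565 and 1547 in control libraries, and its groups did not overlap. It rose by a log2 fold change of 0.42 (edgeR, adjusted p = 0.0315), higher in 4 of 4 MitolΔ/Δ libraries than in every control. Prtn3 counts were 24.1, 26.6, 36.5 and 38.6% of Plppr3 counts in MitolΔ/Δ libraries and 30.6, 27.3, 21.3 and 21.5% in control libraries, so these ratios overlapped as well. How many reads the pair shares was not tested.

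Csf3r encodes the receptor for G-CSF, the cytokine that drives neutrophil production, and it had the highest level per length. Its normalized counts were 1855, 1653, 3099 and 3210 in MitolΔ/Δ libraries 1 to 4 and 2073, 1827, 1860 and 1786 in control libraries 1 to 4. The controls were tight, and the MitolΔ/Δ libraries fell into a low pair, near or below the controls, and a high pair. The means were 2454 ± 814 and 1887 ± 128 (SD, n = 4 each), a coefficient of variation of 33.2% against 6.78%. The log2 fold change was 0.36 with a standard error of 0.19 (edgeR, adjusted p = 0.250), and an exact permutation test gave p = 0.371. Leaving out 1 library kept it between 0.23, without MitolΔ/Δ library 4, and 0.52. Without libraries 3 and 4 together it was -0.10 (edgeR, adjusted p = 0.545).

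Of the transcription factors, Spi1, the gene of PU.1, was the steadiest. It had normalized counts of 672, 521, 579 and 697 in MitolΔ/Δ and 620, 566, 502 and 431 in control libraries. The groups overlapped over most of their range, with means of 617 ± 82.2 and 530 ± 81.5 (SD, n = 4 each). Its log2 fold change was 0.21 with a standard error of 0.13 (edgeR, adjusted p = 0.358).

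Cebpb, encoding the C/EBP protein that carries granulopoiesis under infection and cytokine demand, had 185, 156, 258 and 275 normalized counts in MitolΔ/Δ and 185, 187, 135 and 77.2 in control libraries. MitolΔ/Δ libraries 3 and 4 were again above all controls, and libraries 1 and 2 were inside the control range. The means were 219 ± 57.1 and 146 ± 51.8 (SD, n = 4 each), and the log2 fold change was 0.57 with a standard error of 0.27 (edgeR, adjusted p = 0.200). It was 0.36 without control library 4, the lowest, and 0.24 without MitolΔ/Δ libraries 3 and 4. Cebpb shares 312 exonic bases with Peds1 on the other strand, a plasmalogen synthesis gene with 197 to 260 normalized counts in MitolΔ/Δ and 166 to 206 in control libraries.

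Cebpa, encoding C/EBPα, which granulocyte-monocyte progenitors require, was 1 of the 3 lowest genes, with 113 counts over the 8 libraries. It had 31.3, 16.6, 4.58 and 5.29 normalized counts in MitolΔ/Δ and 0, 13.8, 1.88 and 28.7 in control libraries. Within MitolΔ/Δ, libraries 1 and 2 were high and libraries 3 and 4 low, whereas for Prtn3 libraries 3 and 4 were the high ones. The log2 fold change was 0.33 with a standard error of 0.88 (edgeR, adjusted p = 0.848). It turned to -0.40 without MitolΔ/Δ library 1 and to -0.03 without control library 1 or control library 3, so no direction can be read for this gene. Beside it, Cebpb had 86 to 282 counts in the same libraries, more than Cebpa in 8 of 8.

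Irf8, whose product directs monocyte and dendritic cell fate, had 146, 142, 131 and 251 normalized counts in MitolΔ/Δ and 131, 209, 123 and 83.5 in control libraries. Library 4 of MitolΔ/Δ stood alone above a group that otherwise varied little. The log2 fold change was 0.28 with a standard error of 0.28 (edgeR, adjusted p = 0.569), and it was 0.04 without that library.

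Gfi1, a repressor that supports granulocyte fate and HSC quiescence, had the widest range among the 6 better-covered genes, 3.88-fold from the lowest to the highest library. Its normalized counts were 768, 425, 763 and 1034 in MitolΔ/Δ and 450, 1172, 736 and 302 in control libraries. The highest and the lowest value of all 8 libraries were both controls. The log2 fold change was 0.15 with a standard error of 0.35 (edgeR, adjusted p = 0.823), and it was -0.09 without control library 4 and -0.02 without MitolΔ/Δ library 4.

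**Figure D2:**
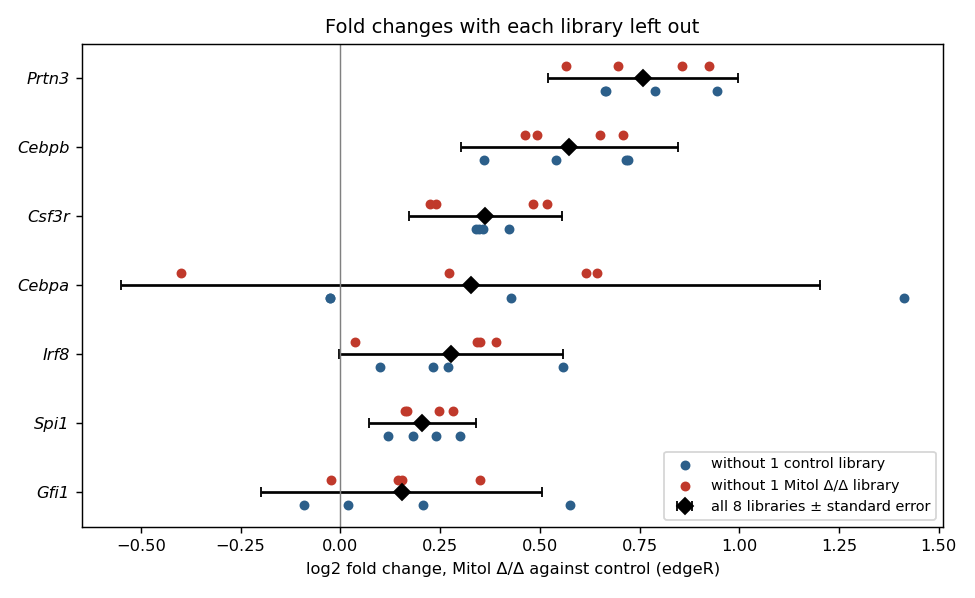
Log2 fold changes (x axis) of the 7 tested genes by edgeR with all 8 libraries (black, with the standard error), with 1 control library left out (blue) and with 1 MitolΔ/Δ library left out (red). Prtn3 stays between 0.57 and 0.94, whereas Cebpa and Gfi1 cross 0.

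Per length of exon, the order in control HSCs was Csf3r, Prtn3, Gfi1, Spi1, Cebpb, Irf8, Elane, Cebpa and Mpo. Levels are in CPM per kb, counts scaled to library size and divided by the joint length of all annotated exons. The means were 39.5, 25.8, 22.3, 18.7 and 10.4 for the first 5. The other 4 were far lower, at 1.5 for Irf8, 0.608 for Elane, 0.452 for Cebpa and 0.217 for Mpo. The place of Irf8 rests on its joint length, 9723 bases against 1504 for Cebpb. Irf8 had 1222 counts over the 8 libraries and Cebpb 1474. Neighbours whose control ranges did not overlap were Csf3r and Prtn3, Spi1 and Cebpb, and Cebpb and Irf8, and all other neighbours overlapped. The MitolΔ/Δ means followed the same order except that Cebpa, at 0.576, was above Elane, at 0.459, with overlapping ranges. Among 21526 genes with a length, the mean level over the 8 libraries put Csf3r at percentile 98.0, Prtn3 at 96.9, Cebpa at 22.3 and Mpo at 10.5.

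**Figure D3:**
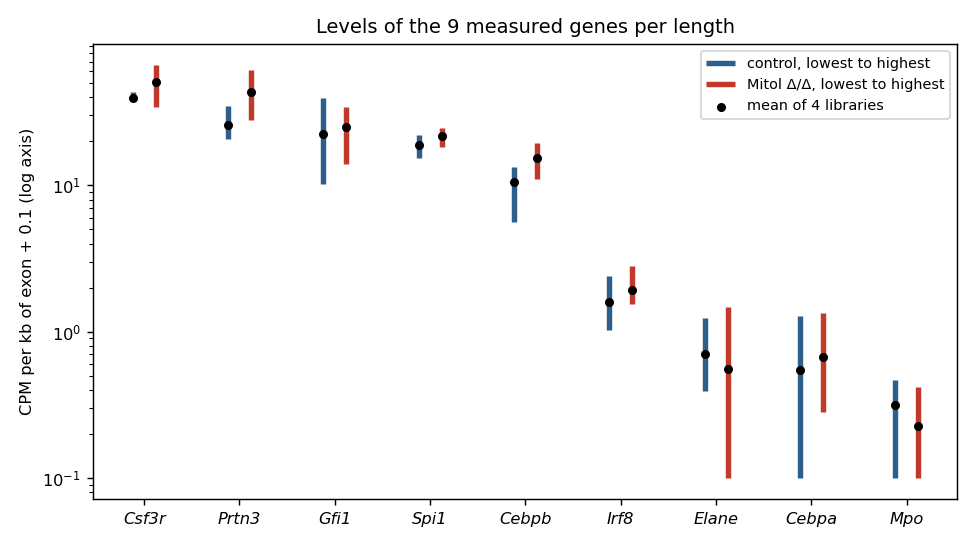
Level per length (y axis, CPM per kb of exon plus 0.1, log axis) of the 9 measured genes, with bars from the lowest to the highest library in control (blue) and MitolΔ/Δ (red) HSCs and points at the means of 4 libraries. The order is alike in both groups, from Csf3r at 39.5 in controls to Mpo at 0.217, both before 0.1 was added.

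Single libraries were high or low for several of these genes at a time. MitolΔ/Δ library 4 had the highest value of all 8 libraries for 5 of the 7 tested genes, namely Prtn3, Csf3r, Cebpb, Spi1 and Irf8. Control library 4 had the lowest value for 5 of the 7, namely Prtn3, Cebpb, Spi1, Irf8 and Gfi1. Control library 3 ranked seventh or eighth for 5 of the 7. With the group means taken away, 15 of 21 pairs of the 7 genes had a correlation above 0 over the 8 libraries, from -0.68 to 0.81 with a median of 0.54. The highest were Irf8 with Gfi1, at 0.81, and Prtn3 with Csf3r, also at 0.81. All 6 pairs below 0 involved Cebpa. These correlations share libraries, depth and cell input and are given as a description.

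**Figure D4:**
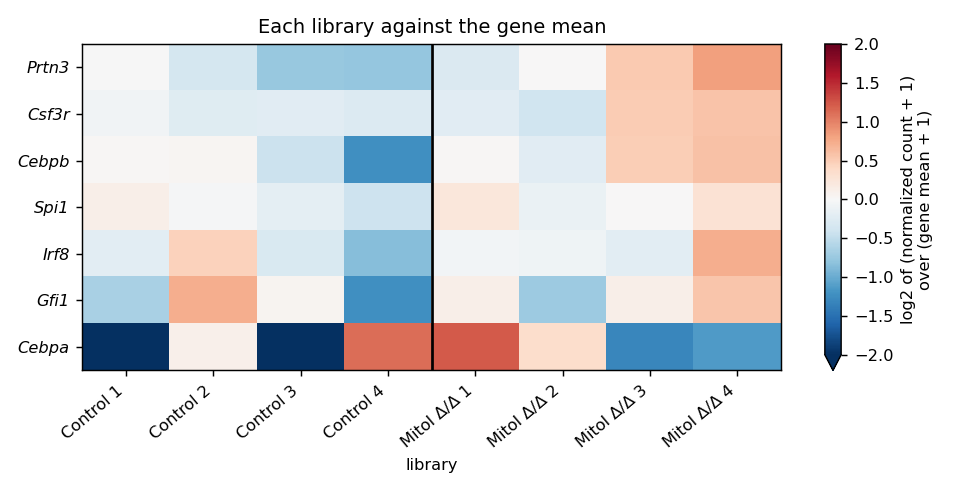
Heat map of the 7 tested genes (rows) over the 8 libraries (columns), coloured by the log2 of the normalized count plus 1 over the gene's mean plus 1. MitolΔ/Δ library 4 is above the mean in 6 rows and control library 4 below it in 6, and the Cebpa row runs the other way in both.

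The genes whose pattern over the 8 libraries was most like that of Prtn3 and of Csf3r were listed after the values of both were seen, again with group means taken away. For Prtn3 they were Epor, Zfp335, Rcn3, Fam117a and Dnm2, at correlations of 0.976 to 0.986. For Csf3r they were I730030J21Rik, Nfkb2, Zscan2, Rreb1 and Stat3, at 0.971 to 0.985. Each list holds the 5 highest values of 12012 genes compared and is given as a description.

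Transcripts of red cells were present in the MitolΔ/Δ libraries that were high for Prtn3, Csf3r and Cebpb. Of 12 red-cell markers 11 were in the table, and their summed normalized counts were 1180, 1252, 5313 and 2698 in MitolΔ/Δ libraries 1 to 4 and 474 to 934 in controls. MitolΔ/Δ library 3 held 1387 normalized counts of the band 3 gene Slc4a1 and 1048 of Hbb-bs, and library 4 held 523 of the carbonic anhydrase gene Car1. Outside these libraries Slc4a1 did not exceed 13.2 and Car1 did not exceed 52.8. Of 6 tested red-cell genes, Hbb-bt and Gata1 rose, with log2 fold changes of 1.29 and 3.30 (edgeR, adjusted p = 0.0442 and 0.00381), each higher in 4 of 4 MitolΔ/Δ libraries than in every control. Gata1 passed in 8 of 8 edgeR fits with 1 library left out. Hbb-bt passed in 3 of 8, those without MitolΔ/Δ library 4, control library 1 or control library 4, and its adjusted p lay between 0.0591 and 0.105 in the others. For Hbb-bt the adjusted p was 0.0503 by DESeq2, 0.128 by the robust edgeR fit and 0.163 by edgeR without MitolΔ/Δ libraries 3 and 4. The part of these transcripts in the myeloid values was not tested.

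Mature neutrophils left little RNA in either group. Of 12 markers of secondary and tertiary granules 6 had rows, with summed normalized counts of 17.2 to 35.7 in MitolΔ/Δ and 38.2 to 106 in control libraries, and neither of the 2 tested passed. S100a9, a calprotectin subunit, had 0 counts in 4 of 4 MitolΔ/Δ libraries and 57 counts in the controls together. Its normalized counts were 2.64, 21.3, 11.3 and 20.7 in control libraries 1 to 4. The control mean was 19.9-fold above a floor of 3 counts over the MitolΔ/Δ group. That ratio covers counting error only and not the spread between control libraries. S100a8, the partner of S100a9, had 2 counts in MitolΔ/Δ and 108 in control libraries. Its normalized counts were 0, 31.9, 19.8 and 51.2 in control libraries 1 to 4. Neither S100a8 nor S100a9 passed the expression filter, so neither was tested. Control library 4, the lowest for 5 of the 7 tested genes, had the highest neutrophil sum, 106. The part of these transcripts in the myeloid values was not tested.

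Of 10 monocyte and macrophage markers 9 had rows, summing to 349 to 455 in MitolΔ/Δ and 238 to 320 in control libraries, and 1 of 6 tested rose, the cathepsin gene Ctss, by 0.73 on the log2 scale (edgeR, adjusted p = 0.0436, higher in 4 of 4). Ctss passed in 2 of 8 edgeR fits with 1 library left out, and its adjusted p over the 8 lay between 0.0364 and 0.121. It was 0.0571 by edgeR scaled by upper quartiles, 0.0621 by limma and 0.0952 by edgeR without MitolΔ/Δ libraries 3 and 4. Of 11 mast cell, basophil and eosinophil markers 2 had rows, with sums of 11.3 to 28.7 over all libraries. Of 8 B-lineage markers 4 had rows and 0 of 1 tested passed. Of 8 T- and NK-lineage markers 4 had rows and 1 of 3 tested passed, Nkg7. Of 7 dendritic cell markers 4 were tested and none passed, and of 8 megakaryocyte and platelet markers 6 were tested, and Pf4 was among those that fell (edgeR, adjusted p = 0.0202, and 0.0549, 0.0593 and 0.0641 without MitolΔ/Δ library 2, MitolΔ/Δ library 3 and control library 4). Of 12 HSC markers, Kit, Hlf and Gata2 were among those that fell, and 0 passed upward. Of the 12 fold changes 2 were above 0. Slamf1 was higher in 4 of 4 MitolΔ/Δ libraries than in every control, at 0.56 on the log2 scale (edgeR, adjusted p = 0.0501). Ly6a was at 0.76 (edgeR, adjusted p = 0.0605), with 3 of 4 MitolΔ/Δ libraries above all controls. Of 7 genes listed for markers excluded by the sort, 4 were tested and Cd48 alone passed, upward. The 7 include Ptprc, of which the paper's lineage antibodies covered only the B220 form. Itgam was higher, at 1.61 on the log2 scale (edgeR, adjusted p = 0.0768), and Cd4 and Ptprc were lower, at -0.60 and -0.02 (adjusted p = 0.258 and 0.951). With 1 library left out, Kit and Hlf passed in 8 of 8 fits, and Gata2 passed only without MitolΔ/Δ library 4, with an adjusted p by edgeR of 0.0514 to 0.0848 in the others.

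Other myeloid genes were taken from 4 lists of 64 genes, 54 of them tested. Of these, 5 rose and 3 fell in MitolΔ/Δ HSCs, against 4.68% and 3.75% of all genes tested, and their median log2 fold change was 0.02. Of the 8 genes called, 5 were in the list of granule processing and early progenitor genes, 2 were receptors and 1 was a transcription factor.

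Among receptors, 1 of 15 tested rose and 1 fell. Il1r1, the signalling receptor for interleukin-1, which pushes HSCs toward myeloid output, had normalized counts of 244, 220, 317 and 703 in MitolΔ/Δ and 69.9, 113, 73.5 and 158 in control libraries. All MitolΔ/Δ values were above the highest control, for a log2 fold change of 1.81 ± 0.37 (standard error; edgeR, adjusted p = 0.0177). Its adjusted p was 0.0538 without control library 2. Kit, the receptor for stem cell factor, had 6061 to 8386 in MitolΔ/Δ and 10221 to 13429 in control libraries, and fell by 0.75 on the log2 scale (edgeR, adjusted p = 0.00705, lower in 4 of 4). It passed in 8 of 8 fits with 1 library left out. The remaining 13 receptors did not pass.

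Among genes of granule processing and early granulocyte-monocyte progenitors, 4 of 13 tested rose and 1 fell. Plac8, a small cysteine-rich protein abundant in myeloid progenitors, had 672, 725, 850 and 1118 normalized counts in MitolΔ/Δ and 546, 465, 404 and 207 in control libraries, a log2 fold change of 1.04 (edgeR, adjusted p = 0.0272, higher in 4 of 4). Nkg7, a granule membrane protein of cytotoxic cells that early myeloid cells also express, rose by 1.05 from 121 ± 29.7 to 252 ± 48.0 normalized counts (SD, n = 4 each; edgeR, adjusted p = 0.0144, higher in 4 of 4). Srgn, the proteoglycan core that packs granule proteases, had 1907 to 2158 in MitolΔ/Δ and 1389 to 1818 in control libraries, a log2 fold change of 0.33 (edgeR, adjusted p = 0.0494, higher in 4 of 4). Cd48, the surface marker whose absence defined the sort, was low in both groups, with 22.2 to 63.4 in MitolΔ/Δ and 4.49 to 21.7 in control libraries (log2 fold change 1.72; edgeR, adjusted p = 0.0450, higher in 4 of 4). Dok3, an adaptor that restrains signalling in myeloid and B cells, fell from 170 ± 48.7 to 72.7 ± 12.9 (log2 fold change -1.24; edgeR, adjusted p = 0.0129, lower in 4 of 4).

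With 1 library left out, Nkg7 and Dok3 passed in 8 of 8 fits and Plac8 in 5 of 8. Plac8 reached adjusted p-values of 0.0605, 0.0640 and 0.0634 without MitolΔ/Δ library 3, control library 2 and control library 3. Srgn and Cd48 passed only without MitolΔ/Δ library 4 or control library 3, and in the fits without any of the other 6 libraries their adjusted p lay between 0.0661 and 0.129 and between 0.0836 and 0.138. Neither the Srgn nor the Plac8 call held in the edgeR fit without MitolΔ/Δ libraries 3 and 4, at adjusted p = 0.0745 and 0.0720.

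Among other myeloid transcription factors, Irf5, an activator of inflammatory cytokine genes, had 138, 153, 120 and 187 normalized counts in MitolΔ/Δ and 270, 238, 200 and 230 in control libraries. All MitolΔ/Δ values were below the lowest control, for a log2 fold change of -0.67 (edgeR, adjusted p = 0.0327). It passed only without MitolΔ/Δ library 4 or control library 3, and in the other 6 fits its adjusted p lay between 0.0711 and 0.0922. The remaining 19 did not pass, and 0 of the 6 genes of the NADPH oxidase, the superoxide source of phagocytes, did. Of these, Cybb, named here after its values were seen, had 0.783, 24.9, 51.3 and 165 normalized counts in MitolΔ/Δ and 0, 18.1, 3.77 and 6.29 in control libraries (log2 fold change 3.03; edgeR, adjusted p = 0.0938, 3 of 4 MitolΔ/Δ libraries above all controls).

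**Figure D5:**
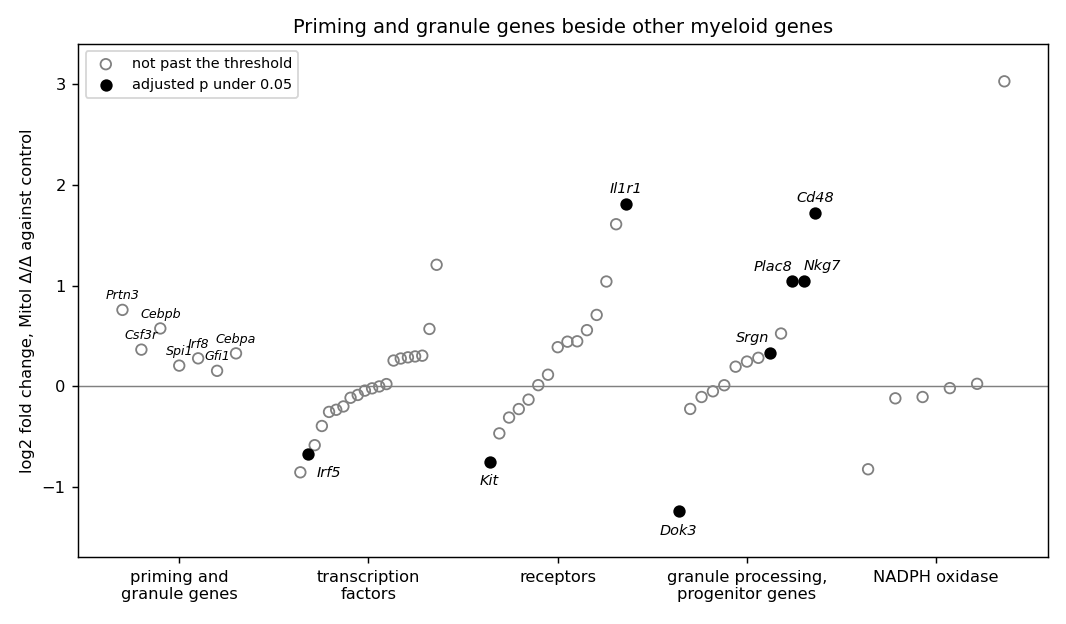
Log2 fold changes (y axis, MitolΔ/Δ against control) of the 7 tested genes at the left and of the 54 other tested myeloid genes in 4 lists, each list sorted by value, with filled points for an adjusted p under 0.05 by edgeR. The filled points are the 5 genes that rose, Il1r1, Cd48, Nkg7, Plac8 and Srgn, and the 3 that fell, Dok3, Kit and Irf5.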

How the data were processed

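Libraries of HSCs were made by the authors from 100 sorted cells each with a Nextera XT kit. Per the labels, reads were handled with STAR, SAMtools and Subread against mm39, and the authors deposited raw counts per gene. Strand setting and annotation are not given in the sources used here. The table holds 23094 rows with at least 11 counts each. Of these, 1029 rows without a symbol (0.335 to 0.467% of a library) were left out. Symbols altered by R (a dot for a hyphen, X before a digit) were restored for 1158 genes, and 21526 of 22065 then matched GENCODE vM39 on GRCm39.

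Counts were tested with edgeR (version 4.0.16; quasi-likelihood, TMM, default expression filter, Benjamini-Hochberg over 16444 genes, adjusted p under 0.05), with condition as the sole term. DESeq2 (version 1.42.0) gave size factors and an alternative test, and limma (version 3.58.1) another. For single genes, a 2-sided exact permutation test of the means used all 70 arrangements. Likeness was the Pearson correlation of log2 CPM (prior count 2) after group means were subtracted, among genes with at least 50 normalized counts. Same-numbered libraries had correlations of deviations of 0.08, -0.0695, 0.0529 and 0.0669 for numbers 1 to 4, and other pairs -0.126 to 0.0971. Such values cannot settle whether a litter or a batch pairs the numbers, and the main fit left them unpaired.

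The genes and lists were chosen with earlier results of these data known. The genes to name were those 10, list genes past the threshold, Marchf5, and the 5 most like Mpo and Cebpa. Mpo failed the filter, so its list was not made, and the list for Cebpa and some marker genes are not reported here. In simulated counts of 16152 genes, edgeR recovered 35.0% of 100 genes changed 1.5-fold and 77.0% of 100 changed 2-fold. Of its calls, 4.27% were false. The changed genes were drawn above a minimum level, so these rates do not cover genes as low as Cebpa. Fewer genes were changed than were called in the data, which also affects the rates. Alternatives covered scaling, the filter, tools, a replicate block and each library left out. The 8 libraries of 100 cells each limit the precision.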

Additional observations from a re-analysis of the deposited data

Results flagged for a closer look

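Within groups of 4 libraries, 18 groups of the measured genes and 32 of other named genes were searched for a library that stands apart by Dixon's test, which flags about 1 in 20 groups by chance. Of the first 18 1 was found. The Irf8 value of 251 normalized counts in MitolΔ/Δ library 4 stood apart from the next highest, 146, by 0.878 of the group's range. Of the other groups 2 were found. Hlf, a stem cell transcription factor, had 4609 normalized counts in MitolΔ/Δ library 3, below the next lowest of 5807. Gata2, another stem cell factor, had 4318 in MitolΔ/Δ library 4, above the next highest of 3433.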

How the results depend on the processing

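Of 112 refitted fold changes of the 7 tested genes, 102 kept their direction and their side of the threshold, 3 passed it newly (all Prtn3) and 7 changed sign. With 1 library left out, Cebpa ran from -0.40 (without MitolΔ/Δ library 1; -0.0252 without control library 1 and -0.0267 without control library 3) to 1.41, and Gfi1 from -0.0898 (without control library 4; -0.0241 without MitolΔ/Δ library 4) to 0.57. Without MitolΔ/Δ libraries 3 and 4 together, a fit added after the data were seen, Gfi1 was -0.15 and Csf3r -0.10. Differences of mean normalized counts ran from -4.21 to 0.289 for Elane, from -2.28 to 9.21 for Cebpa and from -38.4 to 252 for Gfi1. They changed sign without MitolΔ/Δ library 1 (0.0627 and -2.28) and control library 1 (0.289 and -0.368) for Elane and Cebpa, and without MitolΔ/Δ library 4 (-12.9) and control library 4 (-38.4) for Gfi1. The cause was not tested. The number of these genes past the threshold, 0 by edgeR, was 1 with DESeq2 and 0 to 1 with 1 library left out (1 without MitolΔ/Δ library 1 or control library 1).

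Over all genes, 1386 calls became 2315 with DESeq2, 2422 without MitolΔ/Δ libraries 3 and 4, and 359 (without control library 2) to 2501 (without MitolΔ/Δ library 4) with 1 library left out. With the replicate number as a block it was 1652, and 0 of these 7 genes passed. Of 240 refits of 15 other named genes, 185 kept their call, 55 lost it and 0 changed sign. Mpo, Elane and Cebpa were limited by 38 to 113 counts in all.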
